A study of Solanum tuberosum with 11 samples.

Results

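The transcripts described here lie in gene-poor stretches of the potato chromosomes. Each of the 12 chromosomes was cut into 1-Mb bins from position 0, every transcript was placed by the midpoint of its locus, and the members are the transcripts in bins that hold 20 or fewer, with the last bin of each chromosome left out. This gave 706 members in 41 bins, of 35091 transcripts in 654 bins. The choice used positions only and no expression value. RNA was sequenced from thin discs of tuber periderm holding the apical bud, cut from dormant minitubers of Solanum tuberosum cultivar Atlantic. Tubers had been injected with 10 µg of NG, a substituted nitroguanidine, in 5 µl of dimethyl sulfoxide (DMSO), and the labels list 3 libraries at day 1, 2 at day 4 and 3 at day 7. The control is 3 libraries labelled zero time without NG, which the labels describe both as treated with DMSO and as untreated. The authors' deposited table holds 1 value per condition, already combined over libraries, and it calls the conditions Controls, NG 1-Day, NG 5-Days, NG 7-Days.

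No NG group had a DMSO library of its own day, so the effects of NG and of elapsed time cannot be told apart. No label gives a day 5, and NG 5-Days is kept as the table's name and is not equated with the day 4 libraries. The table does not name the unit of its expression values, which are called levels here. Its layout is one that usually holds FPKM, fragments counted per length of transcript and per size of library. With 1 value per condition there is no spread between libraries, so no mean ± SD can be given. The errors below are the standard errors implied by the authors' own test statistics, and sequencing depth is unknown. Identifiers come without gene names, and the 32873 RefSeq genes of assembly SolTub_3.0 gave 0 matches. Members are therefore given by identifier or locus, without function, and the labelled tissue could not be checked against marker genes. Loci are those of the authors' deposited table, and the genome build behind them is not given here.

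Plant chromosomes are not evenly filled with genes. In potato, as in other Solanum species, genes crowd towards the chromosome arms, whereas the broad regions around the centromeres are rich in repeats, packed into heterochromatin and hold genes far apart. Active genes are nevertheless found within such regions. No annotation of centromeres was at hand, so the bins are described by gene density alone.

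The gene-poor bins made up 6.27% of all bins and held 2.01% of all transcripts. They held between 9 and 20 transcripts, with a median of 18, where the median over all 654 bins was 41. They lay on 9 chromosomes, with 8 bins on chromosome 1, 7 each on chromosomes 4 and 7, 6 on chromosome 12, 4 on chromosome 10, 3 on chromosome 9 and 2 each on chromosomes 2, 6 and 8. The other 3 chromosomes had none. The rule left out the last bin of each chromosome, and 4 of these 12 bins held 20 or fewer transcripts. The gene-poor bins that remained lay at least 5 Mb from the nearer end of the span covered by transcripts, with a median of 18 Mb. Few formed long stretches: 26 bins had no other gene-poor bin beside them, and the 52 bins next to these held a median of 32 transcripts. The dependence on the grid was large. With bins counted from position 500000 the rule chose 687 transcripts, of which 232 were members, 32.9% of the members and 33.8% of the alternative set.

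The members were shorter than other transcripts. They were also more isolated and shared loci less often. The choice of sparse bins favours both of these, so they are not separate results. Their loci, introns included, had a median length of 1634 bases (interquartile range 564 to 3702), against 2452 bases in all other transcripts (1078 to 4715). The median distance to the nearest neighbouring locus was 13.3 kb for members and 2.33 kb for the others. A locus shared with another transcript was listed for 16 members, 2.27%, and for 7.14% of the others. Reads from such overlapping pairs cannot be told apart here, since the table does not say whether strand was used.

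Most members were listed at 0 throughout. The authors' deposited table lists 481 of the 706, 68.1%, at 0 in all 4 conditions, against 24.3% of the other transcripts. A further 57 members were at 0 in some conditions, and 168 were above 0 in every condition. A level of at least 1 was reached by 112 members in Controls, by 107 in NG 1-Day, by 111 in NG 5-Days, by 115 in NG 7-Days. As shares these were 15.9%, 15.2%, 15.7% and 16.3% of the members, where the other transcripts had 50.3%, 48.7%, 50.2% and 51.1% in the same order of conditions. The deficit was thus of similar size in all 4 conditions. No test of these differences was run. Below, a transcript is called detected where its mean level over the 4 conditions was at least 1.

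Detection was also lower among members at matched locus length. When the other transcripts were weighted to the members' 6 classes of locus length, 43.3% of them had a mean level of at least 1 over the 4 conditions, against 15.7% of members, and 31.2% were at 0 throughout, against 68.1% of members. The gap was present in every length class. Among loci of 500 bases or less, 3.95% of members and 13.0% of the others had a mean level of at least 1. Among loci over 4000 and up to 8000 bases the shares were 36.9% and 73.2%.

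Detection followed gene density over the chromosomes, with the last bin of each left out. Median locus length differed as well. It was 1634 bases in the gene-poor bins, 1606 in bins of 21 to 30 and 2955 in bins with more than 100. The shares by density were not matched for length. A mean level of at least 1 was found for 15.7% of transcripts in bins of 20 or fewer, 18.4% in bins of 21 to 30, 25.7% in bins of 31 to 40 and 45.3% in bins of 41 to 60. The share was 58.5% in bins of 61 to 80, 63.6% in bins of 81 to 100 and 65.5% in bins with more than 100. The share at 0 throughout ran the other way, with 68.1%, 64.8% and 54.3% in the 3 sparsest classes and 8.95% in the densest. Among these classes the gene-poor bins had the lowest share, and bins of 21 to 30 transcripts stood close to them. The order did not continue within the gene-poor bins, since 20.5% of the 132 members in bins of 15 or fewer were detected, and 14.5% of 117 without the chromosome 1 bin from 54 to 55 Mb. At the limit of the rule, the 371 members in bins of 19 or 20 had 12.4% at a mean level of at least 1, and the 644 transcripts in bins of 21 or 22 just outside had 18.6%.

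**Figure D1:**
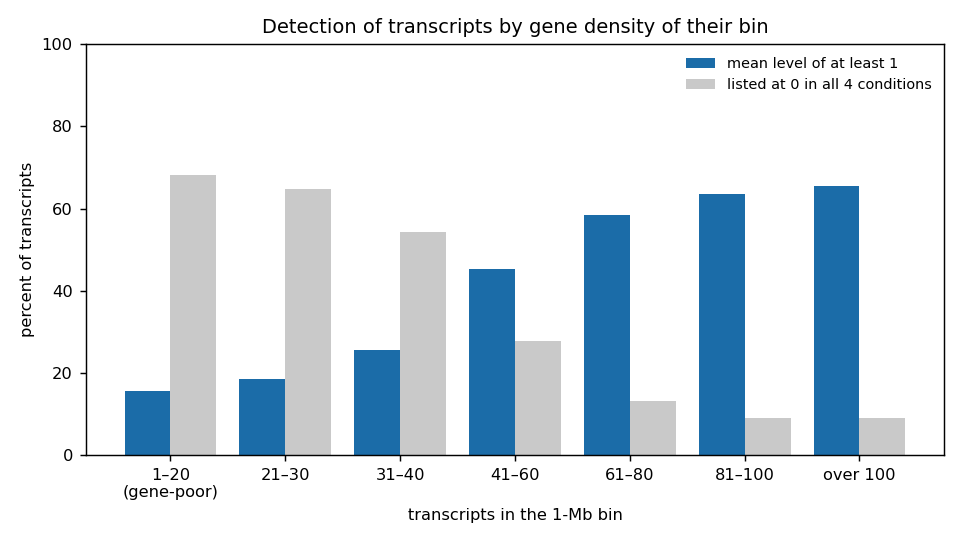
The plot shows, for 7 classes of 1-Mb bins by their number of transcripts (horizontal axis), the percent of transcripts with a mean level of at least 1 over the 4 conditions and the percent listed at 0 in all 4 (vertical axis). In the gene-poor class on the left 15.7% were detected and 68.1% were at 0, and in the densest class 65.5% were detected. The last bin of each chromosome is left out.

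Among transcripts with a mean level of at least 1, members had levels like those of the others. The 111 members with a mean level of at least 1 had a median mean level of 10.2 (interquartile range 3.50 to 22.5), against 10.0 (3.88 to 24.4) for the 17484 detected transcripts elsewhere. Of these 111 members, 8 had a mean level of at least 100, which is 7.21%, against 6.10% of the detected transcripts elsewhere. The likeness does not extend to weaker transcripts. Over the 225 members above 0 in any condition the median mean level was 0.854, against 3.97 over the 26018 other transcripts above 0. The median mean level of detected transcripts in the other density classes lay between 7.91 and 10.5.

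A single transcript carried about as much signal as all other members together. The transcript at chromosome 1, 15850248 to 15856547, had levels of 3869, 4191, 2902 and 3207 in Controls and on NG 1-Day, NG 5-Days and NG 7-Days in the authors' deposited table. It took between 44.7% and 56.6% of the summed level of the members in each condition, and it was not called in any comparison. The second most abundant, at chromosome 4, 20137647 to 20138257, had levels of 730, 596, 937 and 1024 in the same order. It rose by 1.57-fold in NG 5-Days over NG 1-Day (log2 change of 0.65 with a standard error of 0.19, adjusted p = 0.0154, the authors' deposited table). The third, at chromosome 1, 29801728 to 29806817, had 480, 482, 369 and 346 and was not called. The summed level of the members without the most abundant one was 3496 for Controls, 3214 for NG 1-Day, 3510 for NG 5-Days, 3962 for NG 7-Days. In all, the members held between 1.05% and 1.16% of the summed level of the table.

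Detection varied from bin to bin. The number of members with a mean level of at least 1 was 0 in 3 bins, and the highest was 10 of 15, in the chromosome 1 bin from 54 to 55 Mb. The next highest were 6 of 18 on chromosome 1 (41 to 42 Mb), 6 of 18 on chromosome 6 (8 to 9 Mb), 6 of 18 on chromosome 9 (11 to 12 Mb) and 6 of 20 on chromosome 10 (32 to 33 Mb). By chromosome, 13 of 54 members on chromosome 9 and 11 of 37 on chromosome 6 were detected, and 2 of 37 on chromosome 2. At least 1 member called in any comparison was found in 19 bins, and 22 held none. Only 147 members were tested in any comparison, and 19% of these were called, against 22% of the other transcripts tested.

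**Figure D2:**
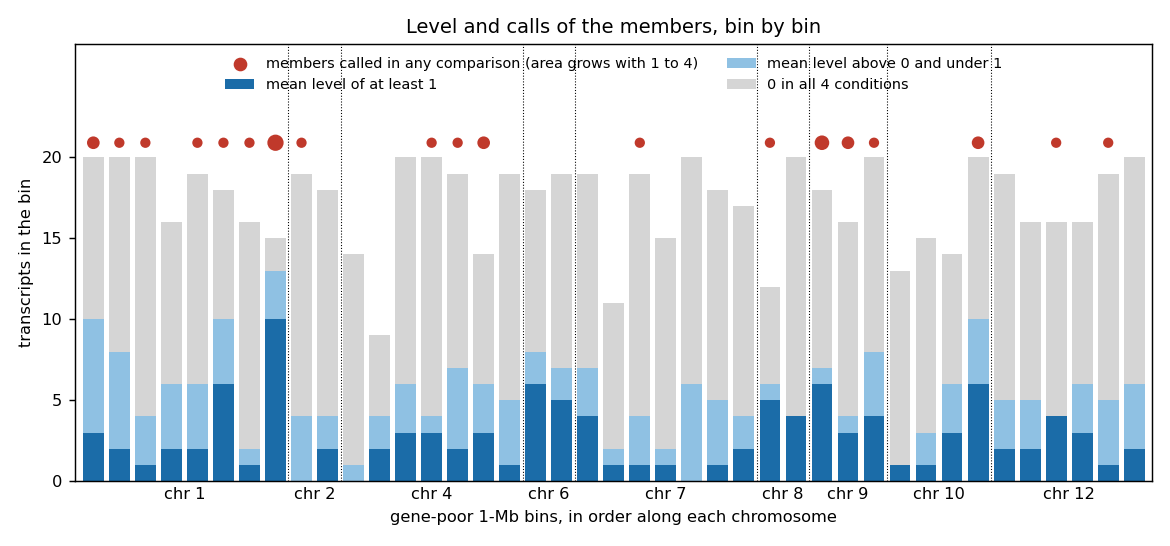
Each bar is a gene-poor bin, in order along its chromosome, and its height is the number of transcripts in it, split by mean level over the 4 conditions; a red dot marks bins with called members, its area growing with their number. The chromosome 1 bin with 10 of 15 members detected stands apart, and 22 bins have no called member.

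The table's own filter shaped what could be tested. Only 147 members were tested in any of the 6 comparisons, and 132 of 706, 18.7%, for NG 5-Days against NG 1-Day, where 56.9% of the other transcripts were. In that comparison 504 of the 574 untested members were at 0 in both conditions and another 63 were under 1 in both. The counts below are thus counts of a tested minority and not of all members. A call means that the adjusted p of the authors' deposited table is under 0.05, with p-values adjusted over all 6 comparisons together. All 3 comparisons against Controls use the same control values, and each NG condition also enters more than 1 comparison.

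Against the control, almost nothing was called among the members. In NG 1-Day 2 of 133 tested members fell and 0 rose by the authors' deposited table, 1.5% in all, where 1.06% of all transcripts tested were called (1.03% as falls, 0.0256% as rises). In NG 5-Days 1 of 135 rose and 0 fell, 0.741%, where 1.47% of all were called (0.648% as rises, 0.826% as falls). In NG 7-Days 0 of 138 were called, where 0.015% of all were, 3 transcripts. At an unadjusted p under 0.05 the authors' deposited table has 5, 3 and 1 members in these 3 comparisons. These are 3.76%, 2.22% and 0.725% of tested members, where 3.25%, 7.52% and 0.366% of all transcripts tested had such a p. The 1 member in NG 7-Days was higher than in Controls. No other tool could be run on the table. The median standard error for members was 0.70, 0.68 and 0.73 on the log2 scale in these comparisons, wider than between the NG days, so few calls do not show that levels stayed near the control.

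Both falls in NG 1-Day were at low level. The transcript at chromosome 1, 29334217 to 29336185, had levels of 1.78, 0.0959, 0.721 and 2.99 in Controls and on NG 1-Day, NG 5-Days and NG 7-Days in the authors' deposited table. NG 1-Day was the lowest by far, and NG 7-Days was the highest. It fell by 4.21 on the log2 scale in NG 1-Day against Controls (standard error 1.35, adjusted p = 0.0339, the authors' deposited table) and rose by 4.96 in NG 7-Days against NG 1-Day (standard error 0.94, adjusted p = 7.79e-06). The transcript at chromosome 1, 54905744 to 54909621, described below with its neighbours, fell by 3.76 in NG 1-Day against Controls (standard error 1.22, adjusted p = 0.0371, the authors' deposited table). Both falls against the control were lost at an adjusted p under 0.01 and when the comparison was adjusted alone.

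Between the NG conditions, members were called about as often as other tested transcripts. For NG 5-Days against NG 1-Day, the authors' deposited table calls 13 of 132 tested members as rises and 8 as falls, 15.9% in all, where 20% of all transcripts tested were called (13.1% as rises, 6.91% as falls). For NG 7-Days against NG 1-Day, 13 of 137 rose and 1 fell, 10.2%, where 8.87% of all were called (7.44% as rises, 1.43% as falls). For NG 7-Days against NG 5-Days, 5 of 137 rose and 0 fell, 3.65%, where 4.36% of all were called (2.52% as rises, 1.84% as falls). These shares are near the background and give no result particular to the members; no test of the differences was run.

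The counts under other call rules are given beside the share of all transcripts that each rule called. At an adjusted p under 0.01, 0 members were called in NG 1-Day, NG 5-Days and NG 7-Days against Controls, where 0.543%, 0.583% and 0.015% of all were. By the same rule 12 were called for NG 5-Days against NG 1-Day (15.4% of all), 9 for NG 7-Days against NG 1-Day (5.71% of all) and 5 for NG 7-Days against NG 5-Days (2.26% of all). With p-values adjusted within each comparison alone, no member was called against Controls, where the shares of all were 0.42%, 0.475% and 0%, and between NG days, in the same order as above, 29, 14 and 5 were, where 25.7%, 9.81% and 3.73% of all were. With lines marked as not tested adjusted with the rest, 4, 2 and 0 were called against Controls (1.13%, 1.87% and 0.101% of all) and 25, 17 and 8 between NG days (17.9%, 9.89% and 5.58% of all). For the 120 members and 18223 transcripts whose errors could be recovered for each condition, a pseudocount of 1 gave 0, 0 and 0 calls against Controls (0.187%, 1.26% and 0.0165% of all) and 21, 9 and 5 between NG days (19.3%, 8.66% and 3.95% of all). Median centring gave 2, 0 and 0 against Controls (0.499%, 0.9% and 0.0165% of all) and 20, 9 and 5 between NG days (18.4%, 8.13% and 3.73% of all). The recovered errors without either gave 2, 0 and 0 (0.527%, 0.905% and 0.0165% of all) and 20, 9 and 5 (18.4%, 8.21% and 3.78% of all).

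Weighting the other transcripts to the members' levels changed this little. Members that were tested had a median mean level of 4.90 in NG 5-Days against NG 1-Day, against 7.13 for the other transcripts tested. Over 6 classes of mean level, with the other transcripts weighted to the members' classes, 19.4% of them were called in NG 5-Days against NG 1-Day, 8.68% in NG 7-Days against NG 1-Day and 4.26% in NG 7-Days against NG 5-Days. The members' shares, 15.9%, 10.2% and 3.65%, lay on both sides of these. Within classes the counts were small. At a mean level from 10 to 30, 3 of 31 members and 19.6% of the others were called in NG 5-Days against NG 1-Day, and at a mean level from 3 to 10, 6 of 27 members, 22.2%, and 22.9% of the others.

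**Figure D3:**
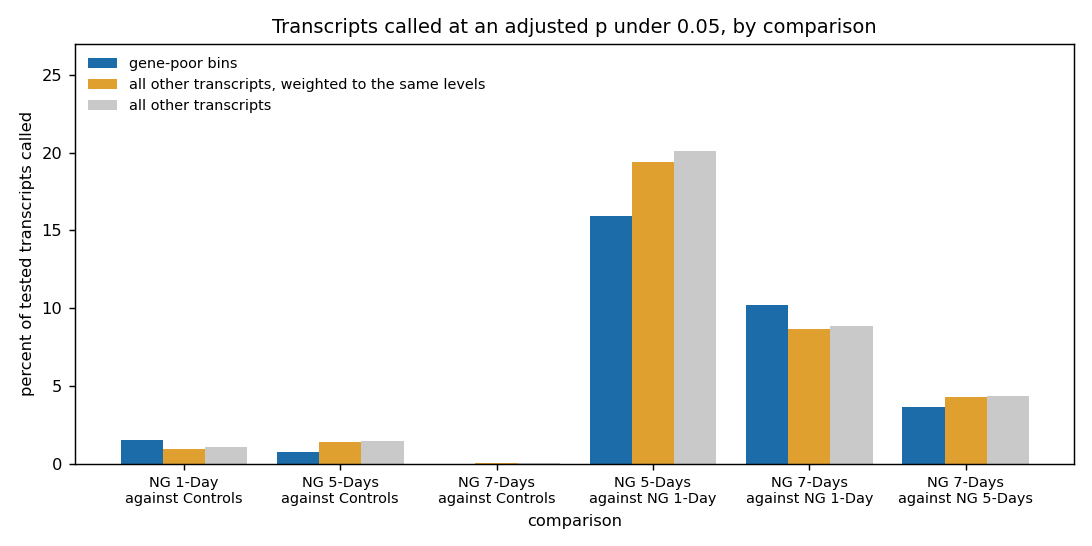
Bars give the percent of tested transcripts called at an adjusted p under 0.05 in the authors' deposited table, for the gene-poor bins, for all other transcripts weighted to the members' classes of mean level, and for all other transcripts, in each of the 6 comparisons. Calls were few against Controls and most frequent for NG 5-Days against NG 1-Day, where the 3 bars stand at 15.9%, 19.4% and 20.1%.

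The sizes of change had similar medians in both sets. The median absolute log2 change of tested members was 0.38 in NG 5-Days against NG 1-Day, against 0.40 in the other transcripts. It was 0.36 against 0.34 in NG 7-Days against NG 1-Day, and 0.24 against 0.23 in NG 7-Days against NG 5-Days. Against Controls it was 0.17 for members and 0.18 for the others in NG 1-Day, 0.30 and 0.32 in NG 5-Days, and 0.24 and 0.23 in NG 7-Days. A change of at least 2-fold was seen in 18.3% of tested members and 21.9% of the others for NG 5-Days against NG 1-Day, and in 12.7% and 15.9% for NG 5-Days against Controls. In the other 4 comparisons the members' share was the higher one before any weighting by level. It was 12.1% in members and 8.99% in the others for NG 1-Day against Controls, and 12.4% and 6.52% for NG 7-Days against Controls. It was 19.4% and 17.5% for NG 7-Days against NG 1-Day, and 12.5% and 8.07% for NG 7-Days against NG 5-Days. Members that were tested had lower levels and wider errors than the others. The other transcripts were then weighted to the members' classes of mean level. Their shares became 23.6% for NG 5-Days against NG 1-Day and 17.4% for NG 5-Days against Controls. For the other 4, in the order given, they were 10.3%, 8.31%, 19.6% and 9.54%. The members' share was thus no longer higher for NG 7-Days against NG 1-Day, at 19.4%. It stayed higher for NG 1-Day against Controls, NG 7-Days against Controls and NG 7-Days against NG 5-Days, at 12.1%, 12.4% and 12.5%. The part of the wider errors was not tested. Across the density classes, calls for NG 5-Days against NG 1-Day ran from 14.6% of tested transcripts in bins of 21 to 30 to 21.9% in bins with more than 100. The gene-poor bins had 15.9%.

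In all, 28 of 147 members tested in any comparison were called, 19%, against 22% of the other transcripts tested (4620 of 20983). The 28 received 43 calls, 17 of them in a single comparison, 8 in 2, 2 in 3 and 1 in 4. NG 1-Day was the lowest of the 4 conditions in 20 of these 28, 71.4%, and in 62.3% of the other called transcripts. NG 5-Days was the lowest in the other 8, 28.6%, against 32.2% elsewhere. The highest condition was NG 5-Days in 11, 39.3%, against 47.6% elsewhere. It was NG 7-Days in 9, 32.1%, against 22.3% elsewhere, NG 1-Day in 7 and Controls in 1. Since calls between NG conditions select members whose NG values lie apart, these counts describe the called members and are not evidence of a shared course.

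Among members called at a level of at least 5, the steepest rises in NG 5-Days over NG 1-Day were a pair of neighbours on chromosome 9. PGSC0003DMG400013942, at 15775351 to 15780447, had levels of 2.07, 0.298, 7.50 and 4.02 in Controls and on NG 1-Day, NG 5-Days and NG 7-Days in the authors' deposited table. PGSC0003DMG400031339, next to it at 15771356 to 15774109, had 2.21, 0.784, 6.24 and 3.30. Both were lowest in NG 1-Day and highest in NG 5-Days. The first rose 25.2-fold in NG 5-Days over NG 1-Day (log2 standard error 0.48, adjusted p listed as 0 in the authors' deposited table) and the second 7.97-fold (standard error 0.50, adjusted p = 1.86e-07). In NG 7-Days over NG 1-Day they rose 13.5-fold (adjusted p = 2.08e-09) and 4.21-fold (adjusted p = 0.0109) in the authors' deposited table. Neither was called against Controls. Another transcript of the bin, at 15798079 to 15802949, had 24.1, 22.2, 22.3 and 18.9 in the authors' deposited table.

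Chromosome 9 also held a steep rise at high level. PGSC0003DMG400029207, at 18097626 to 18099365, had levels of 178, 22.8, 169 and 485 in Controls and on NG 1-Day, NG 5-Days and NG 7-Days in the authors' deposited table. NG 1-Day lay far below the other 3 conditions and NG 7-Days well above them. It rose 21.3-fold in NG 7-Days over NG 1-Day (log2 standard error 0.45, adjusted p listed as 0 in the authors' deposited table). The table marks its other 5 comparisons as not tested, so its level of 22.8 in NG 1-Day, against 178 in Controls, is without a call.

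PGSC0003DMG400041220, on chromosome 9 at 11511364 to 11515401, had 3.59, 0.778, 1.99 and 7.93 in Controls and on NG 1-Day, NG 5-Days and NG 7-Days in the authors' deposited table. It rose 10.2-fold in NG 7-Days over NG 1-Day (log2 standard error 0.72, adjusted p = 0.000136) and 3.98-fold in NG 7-Days over NG 5-Days (standard error 0.55, adjusted p = 0.00771, the authors' deposited table). It shares its whole listed locus with a second member, which had 0.463, 0.133, 0.752 and 1.00 and also rose in NG 7-Days over NG 1-Day (7.55-fold, adjusted p = 0.0151, the authors' deposited table). Reads of the 2 cannot be told apart here. Of pairs of members adjacent along a chromosome, 53 had both transcripts tested for NG 5-Days against NG 1-Day. In 1 of these, 1.89%, both were called in the same direction, against 3.55% of the 13892 other adjacent pairs. For NG 7-Days against NG 1-Day it was 2 of 54 member pairs, 3.70%, against 0.849% of 13657 other pairs. These are the chromosome 9 neighbours and, on day 7, also this overlapping pair.

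PGSC0003DMG400005361, on chromosome 4 at 27218739 to 27223348, changed at each step between NG days. Its levels were 47.4, 21.2, 38.6 and 103 in Controls and on NG 1-Day, NG 5-Days and NG 7-Days in the authors' deposited table. It rose 1.82-fold in NG 5-Days over NG 1-Day (adjusted p = 0.000376) and 2.68-fold in NG 7-Days over NG 5-Days (log2 standard error 0.32, adjusted p = 0.000289, the authors' deposited table). In NG 7-Days against Controls it was 2.18-fold higher without passing the test (adjusted p = 0.350, the authors' deposited table).

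Falls in NG 5-Days against NG 1-Day were fewer than rises, 8 against 13, or 6.06% and 9.85% of tested members. The same held over all transcripts tested, with 6.91% as falls and 13.1% as rises. PGSC0003DMG401033888, on chromosome 1 at 12804064 to 12806740, had 182, 252, 82.0 and 106 in Controls and on NG 1-Day, NG 5-Days and NG 7-Days in the authors' deposited table. Both later NG conditions lay below Controls and NG 1-Day. PGSC0003DMG401033888 shares its whole listed locus with another transcript, and reads of such a pair cannot be told apart here. It fell by 1.62 on the log2 scale in NG 5-Days against NG 1-Day (standard error 0.19, adjusted p listed as 0) and by 1.25 in NG 7-Days against NG 1-Day (standard error 0.30, adjusted p = 0.00148, the authors' deposited table). This was the only member called as a fall in NG 7-Days against NG 1-Day, and its 3 comparisons with Controls are marked as not tested. PGSC0003DMG400018910, on chromosome 7 at 13720801 to 13721295, had 10.3, 15.1, 6.55 and 8.10 in the same order. It fell by 1.20 in NG 5-Days against NG 1-Day (standard error 0.38, adjusted p = 0.0282, the authors' deposited table), which did not hold at an adjusted p under 0.01.

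**Figure D4:**
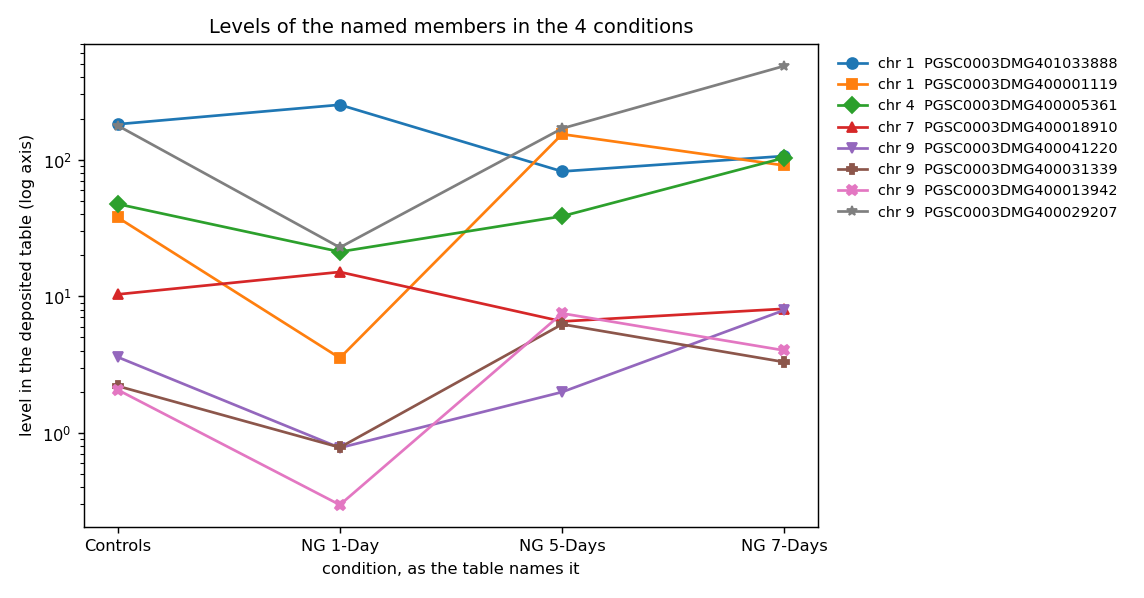
Lines join the levels of the 8 named members in the 4 conditions of the authors' deposited table, on a log axis. In 6 of the 8 the lowest level is in NG 1-Day. The chromosome 1 member that ends at 106 and the chromosome 7 member that ends at 8.10 are lowest in NG 5-Days. Most were named for large changes against NG 1-Day, which favours an extreme level there, so the count is not a separate result. Among called transcripts outside the gene-poor bins, NG 1-Day was the lowest in 62.3%.

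The chromosome 1 bin from 54 to 55 Mb differs from the rest in its setting. Its neighbouring bins hold 61 and 73 transcripts, and within it lies an empty stretch of 802 kb, from 54072702 to 54875139, the longest within any of the 41 bins. Over all 41 bins, this one included, the longest empty stretch had a median of 211 kb. Of its 15 members 10 were detected and 4 were called, more than in any other bin. The bin was picked for its number of called members, so that count is not a separate result. Among tested transcripts outside the gene-poor bins, 22% were called in some comparison. In bins of 61 to 80 transcripts, the density class of both its neighbours, 58.5% were detected. Without this bin 14.6% of the members had a mean level of at least 1 and 69.3% were at 0 throughout, and 18 of 120 tested were called for NG 5-Days against NG 1-Day.

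Several of its members were low in NG 1-Day and high in NG 5-Days. PGSC0003DMG400001119, at 54922065 to 54922721, had 37.8, 3.54, 154 and 90.7 in Controls and on NG 1-Day, NG 5-Days and NG 7-Days in the authors' deposited table. It rose 4.07-fold in NG 5-Days over Controls (log2 standard error 0.62, adjusted p = 0.0235, the authors' deposited table), the only member called as a rise in that comparison. The call did not hold at an adjusted p under 0.01, and with Benjamini-Hochberg adjustment within that comparison alone the deposited p gave an adjusted p of 0.126. Its other 5 comparisons are marked as not tested, among them NG 5-Days against NG 1-Day, where its level was 43.5-fold higher.

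The member next to it, at 54905744 to 54909621, had 1.19, 0.0874, 4.46 and 2.64 in the same order. It rose by 5.67 on the log2 scale in NG 5-Days over NG 1-Day (standard error 0.71, adjusted p = 3.72e-13, the authors' deposited table). The member at 54890810 to 54897348 had 0.326, 0.193, 0.902 and 0.711 and rose by 2.22 (standard error 0.49, adjusted p = 0.000258, the authors' deposited table). Between these lies a member at 54899401 to 54904971 with 23.1, 19.4, 26.1 and 24.3, which was not called (log2 change of 0.43 with a standard error of 0.20, adjusted p = 0.285, the authors' deposited table). On the other side of the empty stretch, the member at 54071420 to 54072701 had 0.550, 0.378, 1.53 and 0.657 and rose by 2.02 in NG 5-Days over NG 1-Day (standard error 0.56, adjusted p = 0.00742, the authors' deposited table). The rises within the bin were thus interleaved with members that were not called.

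**Figure D5:**
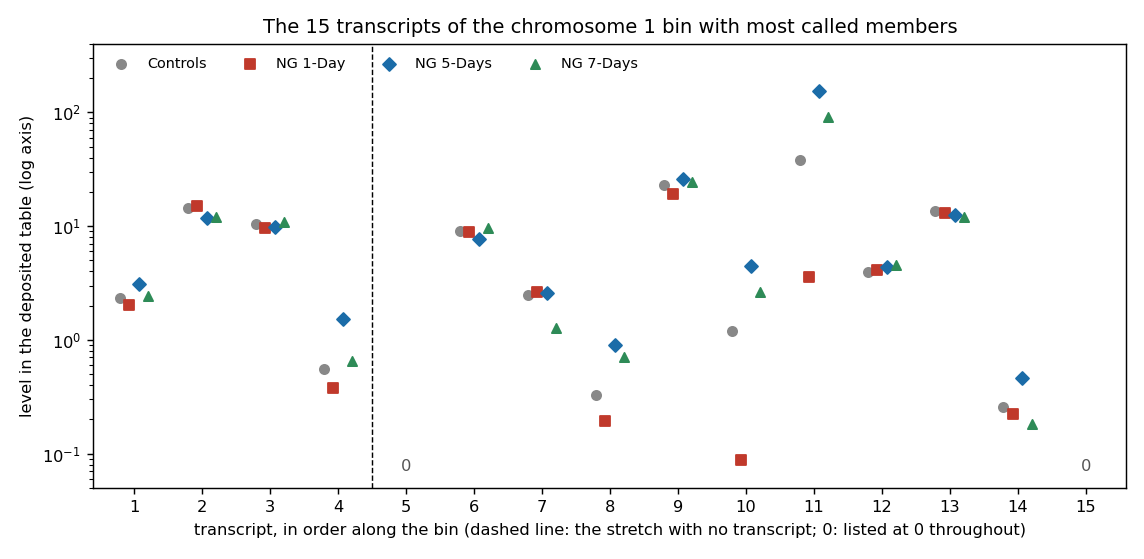
Points give the levels (log axis) of the 15 transcripts of the chromosome 1 bin in the 4 conditions of the authors' deposited table, in order along the bin. The called transcripts 4, 8, 10 and 11 have their lowest level in NG 1-Day and their highest in NG 5-Days, as do transcripts 1 and 9, which were not called between these conditions, and transcripts 5 and 15 are listed at 0 throughout.

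Members listed at 0 in some conditions stayed near 0 in the others. Of these 57, 1 reached a level of 1 in any condition. It lies at chromosome 1, 12428225 to 12428726, and had 0.638, 0, 0.566 and 2.03 in Controls and on NG 1-Day, NG 5-Days and NG 7-Days. The authors' deposited table has it as a rise over NG 1-Day on NG 7-Days (adjusted p = 0.0244), with no fold because NG 1-Day is listed at 0. Among the 57, the number listed at 0 was 29 for Controls, 39 for NG 1-Day, 36 for NG 5-Days, 24 for NG 7-Days.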

How the data were processed

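The only file is a table of the authors' comparisons, per the file headers in the layout of Cuffdiff, with libraries already combined into 1 value per condition. It gives levels of unnamed unit, a log2 fold change and a test statistic (a score without fixed range), and the deposited p-values and q-values; the sources used here name no aligner, version, build or filter. Adjusting the 118862 tested lines together by Benjamini-Hochberg gave the deposited q-values to within 3.32e-06. Standard errors are the ratio of log2 fold change to statistic. Of all transcripts, 13 with conflicting levels or marked as too abundant were left out of level summaries, none of them a member. Shares of other transcripts were weighted to the members' classes of mean level (bounds 1, 3, 10, 30 and 100) or of locus length. Folds against a level of 0 were left out of medians. Named members are, per comparison, the 2 greatest rises and 2 greatest falls among calls whose higher condition reached a level of 5, the 2 most abundant members, and the bin with most called members; others given by locus were picked after their values were seen. The members, lists and rules were chosen with earlier results of these data known. Calculations used Python 3.11.15, pandas 2.3.3 and SciPy 1.17.1. The recomputed calls were tried on simulated data, with noise drawn from the same recovered errors that the calls used. The p adjustment and the binning were checked on small made-up inputs. The weighting and the detection shares were not tried on simulated data.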

Additional observations from a re-analysis of the deposited data

How the results depend on the processing

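No paired analysis was possible because the table holds 1 value per condition, and so leaving out single libraries was not possible either. Intervals used to judge shares and medians were 95% binomial intervals over members. Members called for NG 1-Day against Controls (2) were 0 at an adjusted p under 0.01, when adjusted within the comparison alone, with a pseudocount of 1 and in 2-Mb bins of 40 or fewer. They were 4 with untested lines adjusted too and in bins of 25 or fewer, and 1 in bins of 15 or fewer, in bins from position 500000, in 0.5-Mb bins of 10 or fewer and without the chromosome 1 bin from 54 Mb. For NG 5-Days against Controls (1) they were 0 at 0.01, adjusted alone, with a pseudocount of 1, with median centring, with recovered errors, in 2-Mb bins and without that chromosome 1 bin, 2 with untested lines or with last bins kept, and 3 in bins of 25 or fewer. For NG 5-Days against NG 1-Day (21) they were 12 at 0.01, and 5, 68 and 4 in bins of 15 or fewer, of 25 or fewer and of 2 Mb. For NG 7-Days against NG 1-Day (14) they were 9 at 0.01, with a pseudocount of 1, with centring and with recovered errors, and 4, 39 and 3 in those 3 sets of bins. For NG 7-Days against NG 5-Days (5) they were 8 with untested lines, and 2, 12 and 0 in those sets. The sets differ in size, with 132, 2117 and 273 transcripts. Of the transcripts tested in NG 5-Days against NG 1-Day, 14.3%, 14.6% and 10.5% were called in them.

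With a pseudocount of 1 the median absolute log2 change was 0.13 for NG 1-Day, 0.19 for NG 5-Days, 0.17 for NG 7-Days against Controls, 0.25 and 0.25 for NG 5-Days and NG 7-Days against NG 1-Day and 0.16 for NG 7-Days against NG 5-Days, where bins of 15 or fewer gave 0.32. The share with a level of at least 1 was 20.5%, 18.9%, 22% and 22% in bins of 15 or fewer and 10.6%, 10.6%, 10.6% and 11.4% in 2-Mb bins, in the order Controls, NG 1-Day, NG 5-Days, NG 7-Days. The share tested for NG 5-Days against NG 1-Day was 26.5% in bins of 15 or fewer, 22% in bins of 25 or fewer and 13.9% in 2-Mb bins. The other 106 counts, shares and medians stayed within 1.5 times or within the interval, and the 5 named members with pseudocount and centring values kept their direction under both. The other 3 had alternatives of the p adjustment only. Leaving out the chromosome 1 bin and using recovered errors were chosen after seeing the data. Call counts under the pseudocount, centring and recovered errors rest on 120 members. The cause of these shifts was not tested. Depth per library is unknown, so whether a member at 0 was silent or under detection cannot be told apart.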
